A study of Homo sapiens with 24 samples.

Results

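The genes described here code for proteins with a SCAN domain, and they were taken by symbol: every gene named ZSCAN or ZKSCAN with a number, or SCAND with a single digit, in both deposited tables. The rule found 29 genes of the 58884 listed, namely 21 ZSCAN genes, 7 ZKSCAN genes and SCAND1. All 29 are annotated as protein-coding. They were measured by RNA-seq in HEK293T cells, a human embryonic kidney line, in 10 libraries that form 2 batches, each deposited as a table of its own. Batch 1 holds 2 libraries of untreated wild type (WT) cells and 2 of untreated cells in which both copies of SETD2, the gene of the methyltransferase that writes H3K36me3, are disrupted (KO). Batch 2 holds 2 libraries of untreated KO cells, 2 of KO cells given full-length SETD2 (residues 1 to 2564, named SETD2 FL) and 2 of KO cells given its C-terminal segment (SETD2 C, residues 1404 to 2564, named N3 in the sample labels).

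Both constructs were driven by a CMV promoter in transfected cells, and RNA was taken 72 h after transfection, and every batch 2 library shares the SETD2 disruption. The KO libraries are labelled untreated and not as vector-transfected, so the construct and the transfection itself cannot be told apart where a construct is compared with KO, whereas both groups were transfected in SETD2 C against SETD2 FL. The comparisons ask how SCAN-domain genes differed between WT and KO cells, and between KO cells and KO cells given back either form of SETD2.

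The SCAN domain is a leucine-rich module that lets these proteins pair with themselves and with one another. In most of them it is followed by an array of C2H2 zinc fingers, which read DNA sequence. The ZKSCAN proteins also carry a KRAB domain. In many zinc finger proteins this domain recruits the scaffold TRIM28, and through it heterochromatin proteins and the H3K9 methyltransferase SETDB1. Whether it does so in the ZKSCAN proteins was not tested here. SCAND1 has the SCAN domain without zinc fingers and can pair with the zinc finger members. The family lies largely in clusters, and the H3K9 methylation that SETDB1 writes and the H3K36 methylation that SETD2 writes are both found over zinc finger gene clusters.

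The genome positions followed that pattern only in part. On GRCh38, 9 members lie within 336 kb of chromosome 6 between 28107689 and 28443502, namely ZSCAN9, ZSCAN12, ZSCAN16, ZSCAN23, ZSCAN26, ZSCAN31, ZKSCAN3, ZKSCAN4 and ZKSCAN8. Chromosome 19 holds 7 members (ZSCAN1, ZSCAN4, ZSCAN5A, ZSCAN5B, ZSCAN5C, ZSCAN18 and ZSCAN22), chromosome 7 holds 4 (ZKSCAN1, ZKSCAN5, ZSCAN21 and ZSCAN25) and chromosome 16 holds 3 (ZSCAN10, ZSCAN32 and ZKSCAN2). The members span 2153 kb on chromosome 19, 560 kb on 7 and 22169 kb on 16. ZSCAN2 and ZSCAN29 are on chromosome 15, where they span 41270 kb. ZSCAN30 is on 18, SCAND1 on 20, ZSCAN20 on 1 and ZKSCAN7 on 3. The proteins translated from the reference transcripts ranged from 179 residues in SCAND1 to 1043 in ZSCAN20. A script counted 2 to 14 C2H2 zinc finger motifs in the members other than SCAND1, which had 0, with a median of 6. ZSCAN18 had the fewest with 2, and ZSCAN2 and ZSCAN10 had 14 each.

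Promoters were read from RefSeq on GRCh38.p14 as windows of 300 bases, 250 before and 50 after an annotated start. A window was found for 25 of the 29 members, 41 windows in all because several members have more than 1 start. No window was found for ZSCAN16, ZSCAN26, ZSCAN5C and ZKSCAN2. The members' windows held 2 to 42 CG dinucleotides with a median of 21, beside a median of 14 over the 35116 windows of all genes. Of the members' windows, 80.5% had at least 14, beside 50.3% of all windows. Windows of the same gene can overlap, as for ZSCAN31, and each was counted. The members are all protein-coding, while the windows of all genes were not limited by gene type. The CG dinucleotide reads the same on both strands, and it is the base pair step at which DNA is methylated in human cells.

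ZSCAN18, the member whose level differed most between groups, has 2 such windows, and its gene neighbour ZSCAN1 and the embryonic gene ZSCAN4 lie on the same chromosome arm. The windows are shown with CG in capitals, since the genes differ in CG content and in their levels in HEK293T cells. ZSCAN18 has one window at chr19:58118355-58118654 and another at chr19:58098182-58098481, both on the minus strand. ZSCAN1 is at chr19:58033775-58034074 and ZSCAN4 at chr19:57668685-57668984, both on the plus strand.
ZSCAN18, first start: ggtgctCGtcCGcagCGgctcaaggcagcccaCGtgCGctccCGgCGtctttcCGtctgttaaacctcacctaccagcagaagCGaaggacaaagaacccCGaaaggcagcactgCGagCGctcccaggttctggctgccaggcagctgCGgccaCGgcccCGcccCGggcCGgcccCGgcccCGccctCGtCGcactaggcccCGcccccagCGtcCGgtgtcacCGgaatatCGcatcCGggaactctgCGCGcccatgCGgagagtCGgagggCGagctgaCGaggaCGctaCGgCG
ZSCAN18, second start: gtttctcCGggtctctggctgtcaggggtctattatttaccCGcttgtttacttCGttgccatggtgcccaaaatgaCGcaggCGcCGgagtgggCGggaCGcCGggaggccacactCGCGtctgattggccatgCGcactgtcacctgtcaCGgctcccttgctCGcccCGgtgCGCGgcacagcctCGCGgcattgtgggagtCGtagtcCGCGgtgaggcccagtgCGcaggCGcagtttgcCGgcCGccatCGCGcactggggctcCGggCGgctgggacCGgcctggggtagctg
ZSCAN1: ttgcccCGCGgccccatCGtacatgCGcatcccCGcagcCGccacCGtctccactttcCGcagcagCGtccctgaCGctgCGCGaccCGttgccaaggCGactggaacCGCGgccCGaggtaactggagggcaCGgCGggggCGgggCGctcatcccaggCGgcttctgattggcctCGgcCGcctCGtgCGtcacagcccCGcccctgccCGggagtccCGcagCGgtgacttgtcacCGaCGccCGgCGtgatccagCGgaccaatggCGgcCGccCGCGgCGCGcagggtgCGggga
ZSCAN4: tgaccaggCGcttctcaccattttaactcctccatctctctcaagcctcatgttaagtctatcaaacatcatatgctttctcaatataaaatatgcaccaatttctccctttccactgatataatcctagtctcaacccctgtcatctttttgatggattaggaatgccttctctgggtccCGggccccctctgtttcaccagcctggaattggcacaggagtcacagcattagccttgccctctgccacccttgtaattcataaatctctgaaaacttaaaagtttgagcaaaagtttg
The first ZSCAN18 window held 36 CG dinucleotides, a number that 12.7% of all windows reached, and the second held 31, which 20.7% reached. The ZSCAN1 window held 42, the most among the members, which 5.85% of all windows reached. The ZSCAN4 window held 2, and 89.0% of all windows held at least that many.

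Levels are given as TPM, which the authors estimated with RSEM. TPM corrects for the length of a transcript and is a share of its library, so levels of different genes can be set side by side, and a level in bulk RNA cannot tell fewer expressing cells from less RNA per cell. In batch 2 the mean TPM of the members spanned from 32.6 for SCAND1 to 0 for ZSCAN1. The next highest means over the 6 libraries were 16.2 TPM for ZSCAN30, 15.3 for ZSCAN2, 13.6 for ZKSCAN8 and 11.4 for ZKSCAN1. Neighbours in that order overlapped in some libraries, and the gap between SCAND1, with a lowest TPM of 27.04, and ZSCAN30, with a highest of 21.97, was the only one among these 5 without overlap.

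The filter for testing, 0.5 TPM or more in 2 or more libraries of a table, was not reached by 6 members. ZSCAN1 was listed at 0 in all 10 libraries. The highest TPM in any library was 0.42 for ZSCAN10, a gene known from pluripotent stem cells, 0.13 for ZSCAN5B, 0.04 for ZSCAN5C, 0.03 for ZSCAN4 and 0.02 for ZKSCAN7. ZSCAN4 is known for a burst of expression in the early embryo, and of the 10 genes listed as activated with it there, among them DUX4, LEUTX and TRIM43, 0 passed the filter. The highest of these 10 was KHDC1L at 0.54 TPM in the first SETD2 C library, with 0.14 in the second. TRIM43 stood at 0.37 and 0.28 TPM under SETD2 C and at or under 0.08 elsewhere. RFPL4B stood at 0.23 and 0.19 TPM under SETD2 C and at or under 0.04 elsewhere. The remaining genes of the list stayed at or under 0.03 TPM. Differences at these low levels were not tested. The other 23 members were tested in both batches.

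**Figure D1:**
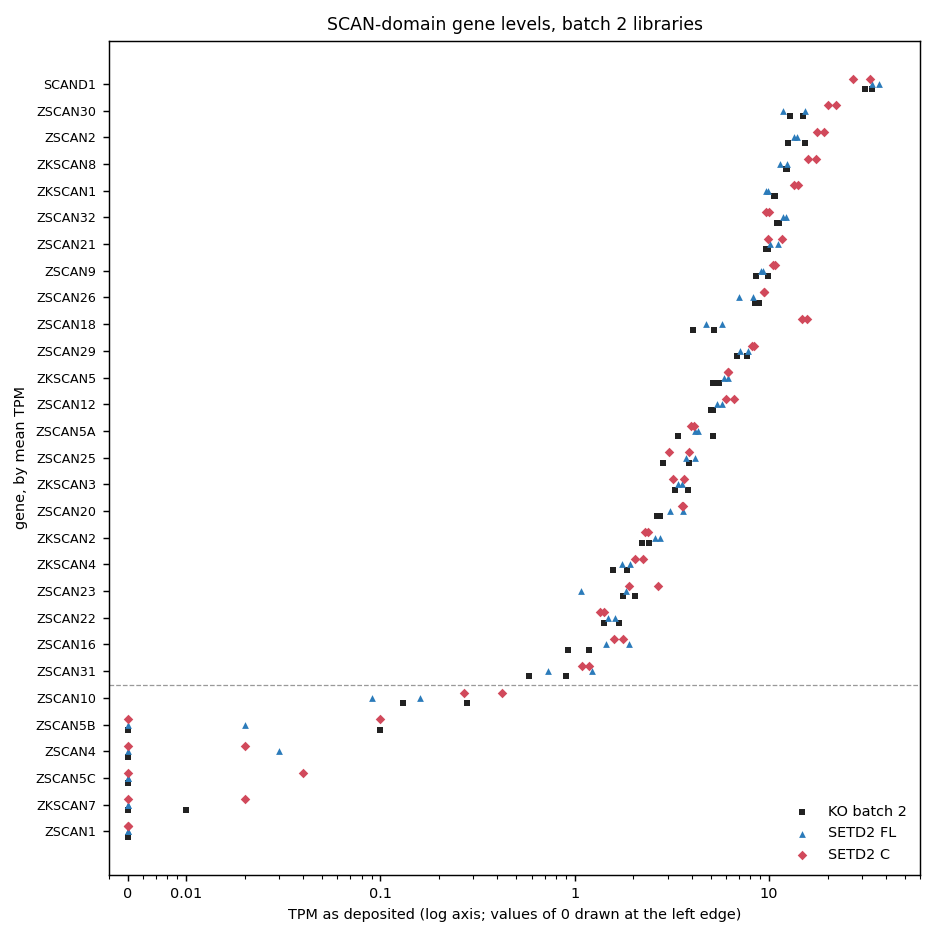
TPM as deposited (log axis) of the 29 SCAN-domain genes in the 6 libraries of batch 2, with 1 point per library and values of 0 drawn at the left edge; the dashed line separates the 23 tested genes from the 6 that did not reach the filter. SCAND1 stands highest at 27.04 to 36.53, and the 2 SETD2 C points of ZSCAN18 (15.72 and 14.76) lie apart from its other 4.

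Some facts of the libraries bear on every value below. Libraries were brought to a common scale by median ratios, with divisors of 0.956 to 0.994 for the KO and SETD2 FL libraries of batch 2, 1.06 and 1.07 for SETD2 C, and 0.879 to 1.06 in batch 1. The number of genes above 0 TPM was 24306 to 25440 in the KO and SETD2 FL libraries and 27104 and 26139 under SETD2 C. Depth is unknown, because TPM keeps none. SETD2 itself stood at 12.62 and 14.82 TPM in WT, at 16.19 and 16.31 in KO of batch 1, and at 11.99 and 12.15 in KO of batch 2. A disrupted gene can still be transcribed, so this level does not check the KO label, and H3K36me3, which bears on it, was not analysed here. SETD2 rose to 439.26 and 421.96 TPM with SETD2 FL and to 1329.05 and 1264.32 under SETD2 C (the length correction uses annotated transcripts and not the shorter construct, so these 2 levels are not compared). Of the 4 genes taken as HEK293T markers (PAX2, NEFL, NEFM and INA), each reached 1 TPM in every group, and their summed TPM was 186 to 193 in KO of batch 2, 172 to 192 under SETD2 FL and 454 to 517 under SETD2 C. The 5 markers of adult kidney epithelium never summed to more than 0.23 TPM, with UMOD and CDH16 at 0 in every library. The 4 fibroblast markers summed to 7.2 to 7.53 TPM in KO of batch 2, 7.59 to 9.42 under SETD2 FL and 11.9 to 13.3 under SETD2 C, and 3 of the 4 never passed 1 TPM. The 3 leukocyte markers summed to 1.82 to 2.72 TPM in KO and SETD2 FL of batch 2 and 3.29 to 3.4 under SETD2 C, the 2 hepatocyte markers to 0.35 to 0.67 and 1.06 to 1.56, and the 2 endothelial markers stayed at or under 0.27. The part of these differences in the results with SETD2 C was not tested.

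Tests were run with limma on log2(scaled TPM + 0.5) for all genes past the filter, 15928 in batch 2 and 14740 in batch 1, with Benjamini-Hochberg adjustment over all of them. A gene is said to have passed the adjusted p at 0.05 or less, and to have been called where the fold change was also at least 2. The added 0.5 makes the change of a gene near 0.5 TPM look smaller than it was. The labels do not say that the 2 libraries of a group came from separate cultures, so the p-values rest on a spread between libraries that may be technical. That spread was pooled over all groups of a batch and drawn by limma toward a trend over all genes. With 2 libraries against 2, an exact permutation test of a single gene cannot go below p = 0.333, and none was used.

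With SETD2 C, ZSCAN18 rose in KO cells, and it was the only one of the 23 tested members to be called. ZSCAN30 and ZKSCAN8 rose by less, and ZSCAN32 fell. The other 19 tested members did not pass the adjusted p, and their log2 fold changes lay between -0.26 and 0.38. Past the adjusted p, 3 members were higher (13.0% of the 23) and 1 was lower (4.35%), beside 21.1% and 15.1% of all genes tested. The 1 call is 4.35% of the tested members, beside 4.06% of all genes. The members' median log2 fold change was 0.05, and that of all genes was 0.05. In this main fit the share past the adjusted p was below that of all genes in both directions, by few genes among 23. The share called was near that of all genes. The split moved with the scaling, for members and for all genes. Without scaling 8 of the 23 members were higher and 0 lower, beside 5506 and 1115 of the 15928 genes. The share higher was then not below that of all genes. After quantile normalization 3 members were higher and 4 lower, beside 2456 and 2785 of the 15928 genes.

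ZSCAN18 (ENSG00000121413, chromosome 19, 58083838 to 58118427, minus strand, 7 exons) is a SCAN zinc finger gene whose CG-rich promoter is known to be methylated in gastrointestinal tumours. Its TPM was 5.22 and 4.08 in KO, 4.73 and 5.75 under SETD2 FL, and 15.72 and 14.76 under SETD2 C. Both SETD2 C libraries stood far above the other 4, which overlapped one another. The mean was 4.65 ± 0.806 TPM (SD, n = 2) in KO, 5.24 ± 0.721 under SETD2 FL and 15.2 ± 0.679 under SETD2 C. The log2 fold change of SETD2 C against KO was 1.48 (SE 0.13, adjusted p = 0.000243, limma with Benjamini-Hochberg adjustment), which is 2.79-fold on the scaled values, with a 95% interval of 1.19 to 1.77 on the log2 scale. By the size of its increase it ranked 166th of 15928 genes, within the top 1.04%. Against SETD2 FL the log2 fold change was 1.34 (SE 0.13, adjusted p = 0.000331, limma with Benjamini-Hochberg adjustment).

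The last exons of ZSCAN18 overlap those of ZNF135 on the opposite strand over 2091 bases, and whether the counting used strand is not given in the sources used here. ZNF135 was at or under 0.08 TPM in every library. In batch 1, ZSCAN18 stood at 2.62 and 3.31 TPM in WT and at 4.24 and 2.42 in KO. Those groups overlapped, and the log2 fold change of WT against KO was 0.00 (SE 0.22).

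**Figure D2:**
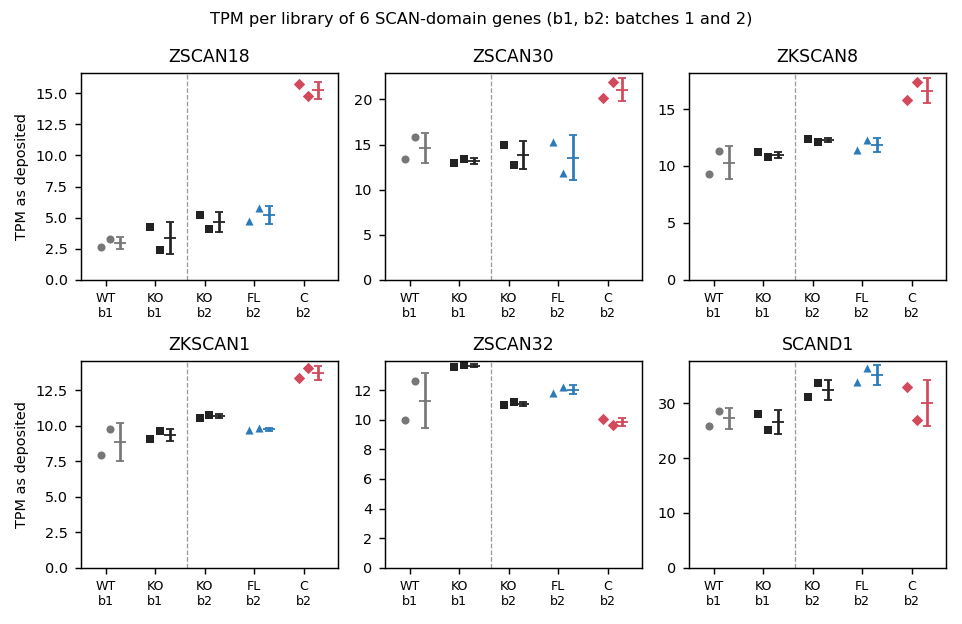
TPM as deposited of 6 SCAN-domain genes in each of the 10 libraries (points), with the group mean and SD (n = 2) as bars beside them; the dashed line separates batch 1 (b1) from batch 2 (b2), whose levels are not compared. For ZSCAN18 the 2 SETD2 C libraries (15.72 and 14.76) lie above all others, none of which passes 5.75.

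ZSCAN30 (ENSG00000186814, chromosome 18, 35251058 to 35290245, minus strand), a SCAN zinc finger gene with 7 finger motifs, stood at 14.97 and 12.74 TPM in KO, 15.3 and 11.79 under SETD2 FL, and 20.17 and 21.97 under SETD2 C. The SETD2 C libraries lay above the other 4, and the SETD2 FL pair spanned both KO libraries. The log2 fold change against KO was 0.45 (SE 0.14, adjusted p = 0.0372) and against SETD2 FL 0.50 (SE 0.14, adjusted p = 0.0227), both by limma with Benjamini-Hochberg adjustment. Left out in turn, KO replicate 4 and either SETD2 C library raised the adjusted p against KO to 0.17, 0.076 and 0.159, and either SETD2 C library or SETD2 FL replicate 4 raised that against SETD2 FL to 0.0518, 0.109 and 0.0987 (limma with Benjamini-Hochberg adjustment). The log2 fold change against SETD2 FL moved from 0.50 to 0.29 without SETD2 FL replicate 4 and to 0.71 without SETD2 FL replicate 3.

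ZSCAN30 shares 206 exon bases with ZNF397, itself a SCAN zinc finger gene, on the opposite strand. ZNF397 stood at 19.91 and 18.85 TPM in KO, 20.87 and 19.03 under SETD2 FL, and 28.31 and 28.71 under SETD2 C, so both genes of the pair were higher with SETD2 C (log2 fold change of ZNF397 against KO 0.40, SE 0.08, adjusted p = 0.00634, limma with Benjamini-Hochberg adjustment). A lncRNA on the same strand, AC011815.1, shares 71 exon bases and stood at 4.12 and 3.86 TPM in KO and 6.33 and 6.27 under SETD2 C. How reads in the shared bases were divided among these genes was not tested.

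ZKSCAN8 (ENSG00000198315, chromosome 6, 28141883 to 28159460, plus strand) codes for a SCAN, KRAB and zinc finger protein. Its TPM was 12.38 and 12.14 in KO, 11.38 and 12.29 under SETD2 FL, and 15.82 and 17.38 under SETD2 C. Both SETD2 C values were the highest of the 6, and the scaled values of SETD2 FL lay below both of KO. The log2 fold change was 0.28 against KO (SE 0.08, adjusted p = 0.0241) and 0.35 against SETD2 FL (SE 0.08, adjusted p = 0.00943), by limma with Benjamini-Hochberg adjustment. The adjusted p against KO was 0.0787 and 0.0901 without KO replicate 2 or 4 and 0.14 without SETD2 C replicate 2, and against SETD2 FL it was 0.065 without SETD2 C replicate 2 and 0.0502 without SETD2 FL replicate 3 (limma with Benjamini-Hochberg adjustment).

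ZKSCAN1 (ENSG00000106261, chromosome 7, 100015572 to 100041689, plus strand), the host gene of a well-known circular RNA, has the same domain build as ZKSCAN8, and the 2 proteins share 51.3% of 530 aligned residues. Its TPM was 10.56 and 10.75 in KO, 9.67 and 9.83 under SETD2 FL, and 13.36 and 14.06 under SETD2 C. The 3 groups did not overlap, with SETD2 FL lowest and SETD2 C highest. Against SETD2 FL the log2 fold change was 0.35 (SE 0.07, adjusted p = 0.00837, limma with Benjamini-Hochberg adjustment), and the adjusted p was 0.0541 without SETD2 C replicate 2. Against KO it was 0.21 (SE 0.07, adjusted p = 0.0608, limma with Benjamini-Hochberg adjustment), which missed the threshold. Without scaling the difference from KO was 0.35 with an adjusted p of 0.00836 (limma with Benjamini-Hochberg adjustment).

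ZSCAN2 (ENSG00000176371, chromosome 15, 84600986 to 84627796, plus strand), with 14 zinc finger motifs, stood at 15.24 and 12.43 TPM in KO, 13.94 and 13.5 under SETD2 FL, and 17.54 and 19.24 under SETD2 C. ZSCAN2 shares 1223 exon bases with a lncRNA, ENSG00000276278, on the opposite strand, and how reads there were divided was not tested. The SETD2 C libraries were again highest. Neither difference passed, with log2 fold changes of 0.26 against KO (SE 0.10, adjusted p = 0.082) and 0.28 against SETD2 FL (SE 0.10, adjusted p = 0.0605; limma with Benjamini-Hochberg adjustment). Without KO replicate 2 the first was 0.39 with an adjusted p of 0.03, without KO replicate 4 it was 0.12 with an adjusted p of 0.405, and without scaling both passed, at 0.40 and 0.41 with adjusted p of 0.0122 and 0.0113 (limma with Benjamini-Hochberg adjustment).

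ZSCAN32 and SCAND1 were lower with SETD2 C than with SETD2 FL. ZSCAN32 (ENSG00000140987, chromosome 16, 3382081 to 3401065, minus strand) stood at 10.97 and 11.17 TPM in KO, 11.81 and 12.23 under SETD2 FL, and 10.03 and 9.64 under SETD2 C. AC025283.3, which shares 697 exon bases with ZSCAN32 on the opposite strand, stayed at or under 0.39 TPM. The 3 groups of ZSCAN32 did not overlap, with SETD2 FL highest and SETD2 C lowest. The log2 fold change was -0.30 against KO (SE 0.07, adjusted p = 0.0156) and -0.40 against SETD2 FL (SE 0.07, adjusted p = 0.00474), by limma with Benjamini-Hochberg adjustment. Against KO the adjusted p was 0.0724 without KO replicate 4, 0.0834 without SETD2 C replicate 2 and 0.141 without scaling, where the log2 fold change was -0.16, while the difference from SETD2 FL passed in all 14 alternative settings, with 0.0327 as the highest adjusted p (limma with Benjamini-Hochberg adjustment).

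SCAND1 (ENSG00000171222, chromosome 20, 35953617 to 35959472, minus strand), the member without zinc fingers, stood at 31.18 and 33.79 TPM in KO, 33.86 and 36.53 under SETD2 FL, and 33.03 and 27.04 under SETD2 C. Deposited values of SETD2 C and KO overlapped, and the second SETD2 C library was the lowest of the 6. On scaled values the log2 fold change was -0.36 against SETD2 FL (SE 0.10, adjusted p = 0.0234) and -0.26 against KO (SE 0.10, adjusted p = 0.0698), by limma with Benjamini-Hochberg adjustment. Against SETD2 FL the log2 fold change was -0.21 without SETD2 C replicate 2 (adjusted p = 0.121), -0.38 without SETD2 FL replicate 3 (adjusted p = 0.0644) and -0.33 without SETD2 FL replicate 4 (adjusted p = 0.0931, limma with Benjamini-Hochberg adjustment). Without SETD2 C replicate 1, the difference from KO was -0.41 with an adjusted p of 0.0165, and without SETD2 C replicate 2 it was -0.12 with an adjusted p of 0.374 (limma with Benjamini-Hochberg adjustment). SCAND1 shares 796 exon bases with CNBD2 on the opposite strand, which stood at 12.59 and 15.67 TPM in KO, 10.57 and 11.51 under SETD2 FL, and 21.37 and 19.99 under SETD2 C. How reads in those bases were divided was not tested.

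With SETD2 FL, 0 of the 23 tested members passed the adjusted p in either direction and 0 were called, by limma with Benjamini-Hochberg adjustment. Of all genes, 0.176% were higher and 0.0314% lower past the adjusted p, and 0.0816% were called, so few calls were made anywhere. The unadjusted p was under 0.05 for 1 of the 23 members, beside 2536 of the 15928 genes tested. That member was ZSCAN16, with a log2 fold change of 0.47 (SE 0.17, adjusted p = 0.248, limma with Benjamini-Hochberg adjustment). ZSCAN16, named here because of that count, stood at 0.92 and 1.19 TPM in KO and 1.44 and 1.91 under SETD2 FL. The other 22 log2 fold changes lay between -0.34 and 0.25. The 95% interval lay within a 2-fold change in either direction for all 23 members, beside 95.7% of all genes tested. For ZSCAN18 that interval ran from -0.15 to 0.43 on the log2 scale.

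The comparison of the 2 constructs, which shares its SETD2 C libraries with the comparison against KO, had 4 members higher with SETD2 C past the adjusted p (ZSCAN18, ZSCAN30, ZKSCAN1 and ZKSCAN8) and 2 lower (ZSCAN32 and SCAND1). These were 17.4% and 8.7% of the 23 tested members, beside 21.4% and 16.8% of all genes. The single call, ZSCAN18, was 4.35% of the members, beside 3.79% of all genes. The members' median log2 fold change was 0.02 and that of all genes 0.04. Without scaling 6 members were higher and 1 lower, beside 5189 and 1508 of all genes. After quantile normalization 4 were higher and 5 lower, beside 2699 and 3066 of all genes.

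**Figure D3:**
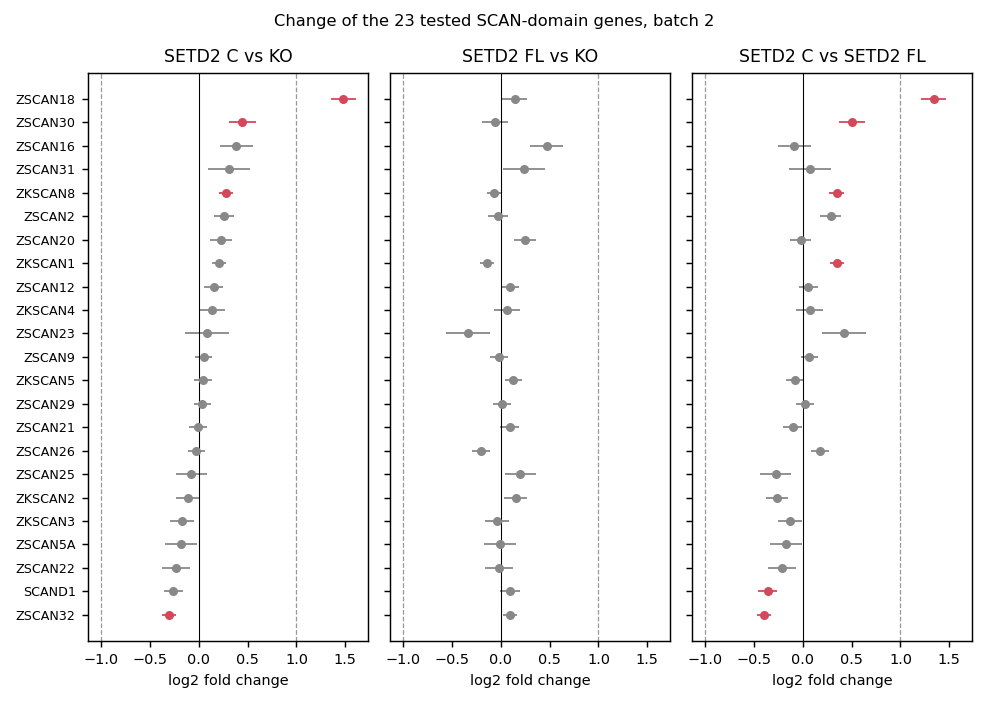
Log2 fold change on scaled values (point) with its standard error (bar) for the 23 tested SCAN-domain genes in the 3 comparisons of batch 2, ordered by SETD2 C against KO; red marks an adjusted p of at most 0.05 and dashed lines a 2-fold change. ZSCAN18 is the single point past 2-fold (1.48 and 1.34), and 0 points are red for SETD2 FL against KO. The comparisons share libraries.

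For 5 members the KO libraries lay between those of the constructs on scaled values, with both SETD2 FL libraries to one side and both SETD2 C libraries to the other. ZKSCAN1 and ZKSCAN8 were lowest with SETD2 FL and highest with SETD2 C. ZSCAN32, SCAND1 and ZKSCAN2 were highest with SETD2 FL and lowest with SETD2 C. ZKSCAN2 (ENSG00000155592, chromosome 16, 25236001 to 25257845, minus strand) stood at 2.42 and 2.23 TPM in KO, 2.58 and 2.76 under SETD2 FL, and 2.37 and 2.31 under SETD2 C. Its log2 fold change between the constructs was -0.26 (SE 0.12, adjusted p = 0.108, limma with Benjamini-Hochberg adjustment). This order was found for 15.6% of all genes tested.

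The 9 members on chromosome 6 were all tested. With SETD2 C against KO, 7 of them had positive log2 fold changes, as had 14 of all 23 tested members. Values of the 9 ran from -0.17 for ZKSCAN3 to 0.38 for ZSCAN16, with a median of 0.13, beside 0.05 over all genes. After quantile normalization 7 of the 23 were positive, so such counts depended on the scaling. ZKSCAN8 was the one member of the cluster that passed. Of the 3 other tested genes that overlap this span, 2 were higher past the adjusted p, beside 21.1% of all genes. The lncRNA ZSCAN16-AS1 rose from 5.92 and 5.64 TPM in KO to 9.15 and 9.38 under SETD2 C (log2 fold change 0.50, SE 0.09, adjusted p = 0.00433, limma with Benjamini-Hochberg adjustment). It shares 197 exon bases with ZSCAN16 on the opposite strand. ZNF192P1 rose from 2.28 and 2.68 TPM to 3.81 and 3.99 (log2 fold change 0.44, SE 0.12, adjusted p = 0.0276, limma with Benjamini-Hochberg adjustment), and PGBD1 stood at 3.82 and 3.71 TPM in KO and 4.07 and 3.91 under SETD2 C.

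ZSCAN18 lies 29.2 kb from ZSCAN1, its closest relative by protein sequence among the members (41.0% identity over 366 aligned residues) and the member listed at 0 throughout. Within 250 kb of ZSCAN18, 23 genes that are no members were tested. With SETD2 C, 7 of them were higher past the adjusted p against KO and 3 lower, and 0 were called, beside 21.1%, 15.1% and 4.06% of all genes. The neighbours that rose included ZNF256 at 0.76 (SE 0.13, adjusted p = 0.00447), ZNF606 at 0.60 (SE 0.15, adjusted p = 0.0159) and ZNF274 at 0.46 (SE 0.11, adjusted p = 0.0123) on the log2 scale, by limma with Benjamini-Hochberg adjustment. The 3 that fell were A1BG-AS1 at -0.76 (SE 0.10, adjusted p = 0.00141), AC010522.1 at -0.76 (SE 0.23, adjusted p = 0.0357) and A1BG at -0.44 (SE 0.075, adjusted p = 0.00373), by the same test. The increase of ZSCAN18 exceeded that of each of the 23, of which AC020915.1 was the highest at 0.89 (SE 0.17). The genes of this region and their window were chosen after the values of ZSCAN18 were seen.

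**Figure D4:**
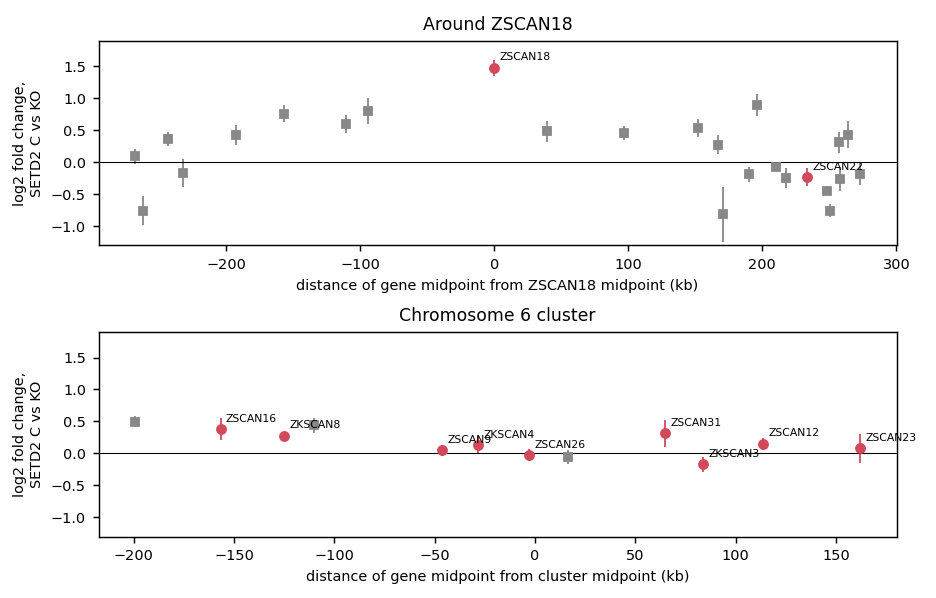
Log2 fold change of SETD2 C against KO (y axis, bars are standard errors) against distance in kb for the SCAN-domain genes (red circles, named) and the other tested genes (grey squares) within 250 kb of ZSCAN18 (top) and inside the chromosome 6 cluster (bottom). ZSCAN18 stands at 1.48, above its 23 neighbours, the highest of which is at 0.89.

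Between WT and KO in batch 1, ZSCAN5A and ZSCAN26 were higher in WT, and no member was lower past the adjusted p or called. These 2 members are 8.7% of the 23 tested, beside 3.17% of all genes that were higher in WT, 1.32% that were lower and 1.36% that were called. The members' median log2 fold change was 0.04 and that of all genes 0.01. An unadjusted p under 0.05 was reached by 5 of the 23 members, beside 3673 of the 14740 genes tested.

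ZSCAN5A (ENSG00000131848, chromosome 19, 56219670 to 56368383, minus strand), a SCAN zinc finger gene with 5 finger motifs, stood at 6.09 and 6.01 TPM in WT and 4.32 and 4.11 in KO. The groups were well apart. The log2 fold change was 0.59 (SE 0.12, adjusted p = 0.0484, limma with Benjamini-Hochberg adjustment). Its protein shares 83.7% of 496 residues with that of ZSCAN5C and 79.2% of 495 with that of ZSCAN5B. Protein likeness does not show how alike the transcripts are, and how reads were divided among the 3 genes was not tested. ZSCAN5B and ZSCAN5C stayed at or under 0.13 TPM. ZSCAN5A also shares 578 exon bases with the lncRNA ZSCAN5A-AS1 on the opposite strand. It shares 164 with the lncRNA ENSG00000267606 on the same strand, and how reads in shared bases were divided was not tested.

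ZSCAN26 (ENSG00000197062, chromosome 6, 28267058 to 28278224, plus strand), with 7 finger motifs, stood at 7.96 and 9.72 TPM in WT and 6.8 and 6.71 in KO. AL021997.3, which shares 292 exon bases with ZSCAN26 on the same strand, stayed at or under 0.31 TPM. Both WT libraries of ZSCAN26 were higher, and their deposited TPM lay further apart than that of the KO pair. The log2 fold change was 0.48 (SE 0.09, adjusted p = 0.0408, limma with Benjamini-Hochberg adjustment). Both genes stood close to the threshold, and ZSCAN26 missed it in 10 of 14 alternative settings and ZSCAN5A in 8. With 1 library left out at a time, the adjusted p of ZSCAN26 was 0.0845 and 0.0534 without WT replicate 1 or 2 and 0.157 and 0.214 without KO replicate 1 or 2, and that of ZSCAN5A was 0.124 without WT replicate 1 and 0.146 and 0.228 without KO replicate 1 or 2 (limma with Benjamini-Hochberg adjustment).

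The other 3 members with an unadjusted p under 0.05 were ZSCAN31, ZSCAN25 and ZSCAN30, named here because of that count. ZSCAN31, of the chromosome 6 cluster, stood at 1.52 and 1.8 TPM in WT and 2.47 and 2.89 in KO, with a log2 fold change of -0.45 (SE 0.14, adjusted p = 0.115). ZSCAN25 was at 4.01 and 5.74 TPM in WT and 7.81 and 6.19 in KO, with -0.37 (SE 0.14, adjusted p = 0.172). ZSCAN30 was at 13.43 and 15.79 TPM in WT and 12.96 and 13.39 in KO, with 0.27 (SE 0.08, adjusted p = 0.112; all 3 by limma with Benjamini-Hochberg adjustment). ZSCAN31 and ZSCAN25 were lower in both WT libraries than in either KO library, and ZSCAN30 was higher.

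**Figure D5:**
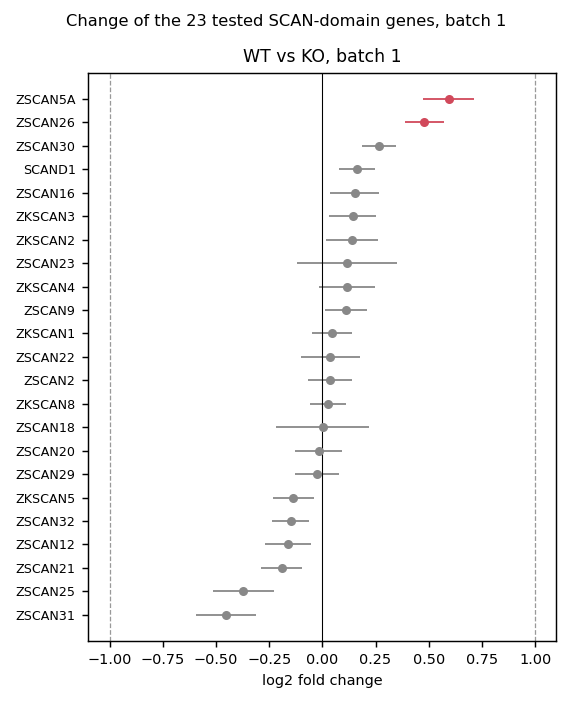
Log2 fold change on scaled values of WT against KO in batch 1 (point) with its standard error (bar) for the 23 tested SCAN-domain genes; red marks an adjusted p of at most 0.05 and dashed lines a 2-fold change. ZSCAN5A (0.59) and ZSCAN26 (0.48) are the 2 red points, and 0 points pass 2-fold.

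The 95% interval of the log2 fold change was set against a 2-fold change in either direction. For 23 of the 23 members it lay within that range in SETD2 FL against KO and in WT against KO. The same was so for 95.7% and 93.5% of all genes tested. In SETD2 C against KO and against SETD2 FL it was so for 22 members, beside 86.2% and 86.4% of all genes. ZSCAN18 was the exception in both. Among the members that passed in no comparison, ZKSCAN3, a repressor of autophagy and lysosome genes, stood at 3.81 and 3.27 TPM in KO, 3.38 and 3.56 under SETD2 FL, and 3.66 and 3.19 under SETD2 C. The groups overlapped, and its log2 fold change of SETD2 C against KO was -0.17 with a 95% interval of -0.45 to 0.11. The proteins of ZKSCAN3 and ZKSCAN4 share 85.8% of 536 residues, and how reads were divided between these genes was not tested either.

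The summed TPM of all 29 members was 172.1 and 162.9 in KO of batch 2, 169.4 and 176.4 under SETD2 FL, and 205.4 and 199.0 under SETD2 C. The SETD2 C libraries were highest on this unscaled sum, to which ZSCAN18, ZSCAN30, ZSCAN2, ZKSCAN8 and ZKSCAN1 added most of the difference by the values above. Without scaling, the median of all genes against KO was 0.18 on the log2 scale, so part of that rise is shared by genes at large.

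Genes chosen for a link to the family were described from lists. Of 27 other SCAN-domain genes with ZNF or other names, 26 were tested. With SETD2 C against KO 5 were higher and 3 lower past the adjusted p, beside 21.1% and 15.1% of all genes, 0 were called, and the median log2 fold change was 0.06, beside 0.05 over all genes. ZNF215 rose most (0.62, adjusted p = 0.00357), followed by ZNF165 (0.51, adjusted p = 0.0306) and ZNF274 (0.46, adjusted p = 0.0123), a zinc finger protein that brings SETDB1 to zinc finger genes. ZNF202 (-0.38, adjusted p = 0.0213), ZNF232 (-0.29, adjusted p = 0.031) and ZNF75D (-0.27, adjusted p = 0.0395) fell, all by limma with Benjamini-Hochberg adjustment. With SETD2 FL against KO 0 passed in either direction, and in SETD2 C against SETD2 FL 5 were higher and 2 lower, beside 21.4% and 16.8% of all genes. In WT against KO 2 were higher and 1 lower, beside 3.17% and 1.32% of all genes, namely ZNF274 (0.67, adjusted p = 0.0169), ZNF197 (0.61, adjusted p = 0.0369) and ZNF232 (-0.57, adjusted p = 0.0196; limma with Benjamini-Hochberg adjustment).

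Of 9 genes of the KRAB corepressor, all were tested and 0 were called. With SETD2 C against KO 2 were higher, CBX5 (0.34, adjusted p = 0.0127), which codes for HP1 alpha, and the deacetylase gene HDAC1 (0.33, adjusted p = 0.00201), and 1 was lower, the scaffold gene TRIM28 (-0.23, adjusted p = 0.0187; limma with Benjamini-Hochberg adjustment), beside 21.1% and 15.1% of all genes. Against SETD2 FL 3 were higher and 1 lower, beside 21.4% and 16.8% of all genes, and in SETD2 FL against KO and in WT against KO 0 passed. The median log2 fold change of the list against KO was -0.05, beside 0.05 over all genes.

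Of 12 autophagy and lysosome genes, 1 was higher and 3 were lower with SETD2 C against KO, beside 21.1% and 15.1% of all genes, with a median of -0.10. MAP1LC3B, a protein of the autophagosome membrane, was at 0.19 (adjusted p = 0.0355), while the lysosomal channel gene MCOLN1 was at -0.38 (adjusted p = 0.033), the protease gene CTSD at -0.30 (adjusted p = 0.0337) and WIPI2, which acts in autophagosome formation, at -0.31 (adjusted p = 0.00888; limma with Benjamini-Hochberg adjustment). Against SETD2 FL 2 were higher and 6 lower, beside 21.4% and 16.8% of all genes, among them LAMP1, a lysosome membrane protein, at -0.55 (adjusted p = 0.0026, limma with Benjamini-Hochberg adjustment), and 0 of the 12 were called. In SETD2 FL against KO and in WT against KO 0 passed.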

How the data were processed

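RNA was measured in 10 HEK293T libraries, 2 per group. The authors aligned paired reads with STAR 2.6.1c to hg38 and estimated gene levels with RSEM 1.3.0 on Ensembl 96 gene models, after ribosomal depletion and poly(A) enrichment, and deposited them as TPM in 1 table per batch. TPM has a fixed sum per library, so depth and counting error are unknown, and levels were not compared between batches. The authors' edgeR test on counts was not used, since the deposited unit is TPM. H3K36me3 ChIP-seq samples were not analysed here.

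Gene types, positions, exons and reference transcripts came from GENCODE 44 (58472 genes matched by identifier, 16 by symbol, 396 not). Protein-coding and lncRNA genes were kept. TPM was scaled by median ratios over those that reached 1 TPM in all libraries of a table. Where 2 or more libraries reached 0.5 TPM, log2(scaled TPM + 0.5) was tested in R 4.3.3 by limma 3.58.1 with lmFit, contrasts.fit and eBayes with trend. Batch 2 was 1 fit over 6 libraries and batch 1 another over 4. Protein identities were computed with Biopython 1.88 from translated reference transcripts.

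Members and lists were chosen with earlier results of these data known. Values in every library are given for members called in any comparison, the largest past the adjusted p (10 in SETD2 C against KO, 5 in each other), the 5 highest by level in batch 2, and those with SETD2 FL and SETD2 C on opposite sides of KO. Alternatives were other pseudocounts (0.1 and 1), filters, scalings and gene types, eBayes without trend, fits of only the groups compared, a replicate block in batch 1, and each library left out in turn, where a lone library is assumed to vary like the others. Data were simulated for SETD2 C against KO with 200 genes changed. With a change of 0.5 on the log2 scale among 15485 genes, 152 passed the adjusted p, with 7 false. With a change of 1.5 among 15456, 200 passed, with 10 false. The noise was normal, with a spread set by the mean level and not by each gene, and no gene of the lowest levels was changed. The recovered share is therefore not the power for a given member.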

Additional observations from a re-analysis of the deposited data

Results flagged for a closer look

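For 6 members the change with SETD2 C differed from the change with SETD2 FL by limma's test of the difference itself, with Benjamini-Hochberg adjustment over all genes. Of the 23 tested members, 17.4% were higher and 8.7% lower with SETD2 C by this test, beside 21.4% and 16.8% of all genes. The log2 difference was 1.34 for ZSCAN18, 0.50 for ZSCAN30, 0.35 for ZKSCAN1, 0.35 for ZKSCAN8, -0.36 for SCAND1 and -0.40 for ZSCAN32. Both changes are taken against the same KO libraries, which cancel in the difference. ZKSCAN1, ZKSCAN8, SCAND1 and ZSCAN32 were also among the 5 members with SETD2 FL and SETD2 C on opposite sides of KO. That order comes from the same construct libraries and itself sets the constructs apart, so it is no separate evidence. The other of these 5 members, ZKSCAN2, had a log2 difference of -0.26 between the constructs, which missed the adjusted p of 0.05 (0.108, limma with Benjamini-Hochberg adjustment).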

How the results depend on the processing

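The member changes with an unadjusted p under 0.05 were recomputed under each alternative, and 0 reversed. Over all 23 tested members directions did change: 14 were positive in SETD2 C against KO, 18 without scaling and 7 after quantile normalization, and 12, 16 and 8 were positive against SETD2 FL. ZSCAN18 stayed called in all 14 settings of both comparisons with SETD2 C, at log2 fold changes of 1.33 to 1.64 against KO and 1.24 to 1.46 against SETD2 FL. Scaling decided how many others passed. Leaving it out moved the median of all genes to 0.18 against KO, 0.16 against SETD2 FL and -0.11 between WT and KO. Without it 8 members passed against KO (8 higher, 0 lower), beside 5506 and 1115 of all genes. After quantile normalization 7 passed (3 higher, 4 lower), beside 2456 and 2785 of all genes. Between WT and KO, 0 members passed with all gene types, without the trend, with no filter beyond a TPM above 0, without scaling and after quantile normalization, and 1 passed with TPM rescaled without mitochondrially encoded genes and SETD2. With 1 library left out, 1 to 4 members passed in SETD2 C against KO, 2 to 5 in SETD2 C against SETD2 FL and 0 to 1 in WT against KO, and the cause of these shifts was not tested. With the replicate block in batch 1, 2 members passed as without it, and 827 genes were higher and 442 lower beside 467 and 194 without the block. The correlation of same-numbered deviations was 0.147, a single value because the deviations of 2 libraries mirror each other, and the labels name no shared source, so a pairing was not established. In batch 2 the groups share fewer than 2 numbers, and no block could be fitted. Depth is unknown, so the members near 0 TPM cannot be called absent.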

Other observations

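Related genes outside the rule were also listed. SCAND2P, a transcribed pseudogene of the family that was not tested because of its type, stood at 4.54 and 5.19 TPM in KO of batch 2, 5.64 and 5.28 under SETD2 FL, and 5.13 and 6.23 under SETD2 C, so both SETD2 FL libraries lay above both KO libraries and the SETD2 C libraries overlapped each of the other groups. ZSCAN12P1 stayed at or under 0.82 TPM, and SCAND3P1, ZKSCAN7P1 and ZSCAN5DP were listed at 0 in every library.

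The lncRNA ZKSCAN2-DT, which starts beside ZKSCAN2, stood at 1.24 and 1.12 TPM in KO, 1.48 and 1.1 under SETD2 FL, and 2.02 and 2.45 under SETD2 C. Its log2 fold change against KO was 0.59 (SE 0.17, adjusted p = 0.0302, limma with Benjamini-Hochberg adjustment), whereas that of ZKSCAN2 was -0.11 (SE 0.12). A test of the difference between these genes was not run. A1BG-AS1, near ZSCAN22 on chromosome 19, fell from 6.0 and 6.68 TPM in KO to 4.01 and 3.85 under SETD2 C (log2 fold change -0.76, SE 0.10, adjusted p = 0.00141, limma with Benjamini-Hochberg adjustment), beside ZSCAN22 at -0.23 (SE 0.14, adjusted p = 0.241). A1BG-AS1 is also among the neighbours of ZSCAN18 given above. The genes of this paragraph were picked after their values were seen.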
